A study of Homo sapiens with 94 samples.

Results

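Integrins and laminins were described in 94 tumors grown under the skin of mice from NCI-H226, a human cell line of malignant pleural mesothelioma in which NF2 is deleted. The genes were all those whose symbol names an integrin alpha subunit (ITGA followed by a number or by D, E, L, M, V, X or 2B), an integrin beta subunit (ITGB and a number) or a laminin chain (LAMA, LAMB or LAMC and a number). They numbered 38 of the 20239 genes in the table: 18 alpha and 8 beta subunits of integrins, and 5 alpha, 4 beta and 3 gamma chains of laminins.

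Female SCID mice (CB17 background, 6 to 8 weeks old in the methods of the study), which lack functional B and T cells, carried 1 tumor each and received a single oral dose of K-975, a covalent inhibitor that occupies the palmitoylation pocket of TEAD transcription factors. Doses were 30, 100 and 200 mg/kg. Other mice received the vehicle alone (ethanol, Solutol and glucose for injection) or were left untreated, and 3 separate studies took tumors 1 h, 3-6 h or 24 h later. Per study there were 5 tumors in every group, other than 4 with vehicle in the 24 h study and 10 in each dose and vehicle group at 3-6 h, where 2 cages of 5 were combined because the labels do not name the 3 h cage. The dosing volume was 20 mL/kg for vehicle and the highest dose but 10 mL/kg for the lower doses. Comparisons of 30 or 100 mg/kg with vehicle or with 200 mg/kg, and the trends over dose, hold this difference in volume too. Time and study cannot be told apart, nor can cage and treatment at 1 h and 24 h. The tumors all descend from 1 cell line and differ by mouse only.

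Integrins are pairs of an alpha and a beta subunit that span the plasma membrane and tie the extracellular matrix to the actin cytoskeleton. Laminins are cross-shaped trimers of an alpha, a beta and a gamma chain, and form the sheet of the basement membrane to which integrins such as alpha3beta1, alpha6beta1, alpha6beta4 and alpha7beta1 bind. Matrix adhesion and cytoskeletal tension are known inputs of the Hippo pathway. NF2 belongs to that pathway, which restrains YAP1 and TAZ, the co-activators of TEAD.

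Levels are FPKM, fragments scaled to transcript length and library size, so values of different genes are compared per length. Libraries were enriched with capture probes, and the part of probe efficiency in differences between genes was not tested. In bulk tumor RNA, fewer cells of a type and less RNA per cell cannot be told apart. In 91 libraries, 11344 to 11665 genes reached an FPKM of 1. Only 8531, 7196 and 702 did so in 3 others (200 mg/kg at 1 h, 100 mg/kg at 24 h and 30 mg/kg at 24 h), which were left out of the values below unless stated. Differences are on the log2(FPKM + 1) scale, with a standard error (SE) and a Benjamini-Hochberg adjusted p of limma over 13036 genes, and a gene was called at an adjusted p below 0.05. Of the 38 genes, 33 passed the filter (an FPKM of 1 or more in 4 or more libraries). The 5 that did not were ITGA4, ITGAD, ITGAL, ITGA8 and LAMB4, listed at 0 in 58, 64, 84, 85 and 70 of the 91 libraries.

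In the 15 untreated tumors, 1 subunit dominated most classes. ITGA3, the alpha subunit of the laminin receptor alpha3beta1, made up 60.4% ± 2.67 (SD, n = 15) of the summed FPKM of the alpha subunits. Its level was 236.2 FPKM at the lowest, 306.1 at the median and 389.4 at the highest, above every value of every other alpha subunit. ITGB4, the long-tailed beta subunit that anchors epithelial cells to the basement membrane at hemidesmosomes, made up 72.7% ± 3.55 (SD, n = 15) of the beta subunits. Its tumors ranged from 354.4 through a median of 446.3 to 571.6 FPKM. LAMA5, the alpha chain of laminin-511 and laminin-521, made up 89.0% ± 1.53 (SD, n = 15) of the laminin alpha chains, with a lowest, median and highest level of 335.7, 388.7 and 469.8 FPKM. LAMC1, the gamma chain shared by most laminins, made up 98.6% ± 0.441 (SD, n = 15) of the gamma chains. The laminin beta chains were the exception, since LAMB2 (55.7% ± 10.1) and LAMB1 (42.3% ± 10.7) shared their class (SD, n = 15) and their ranges overlapped.

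**Figure D1:**
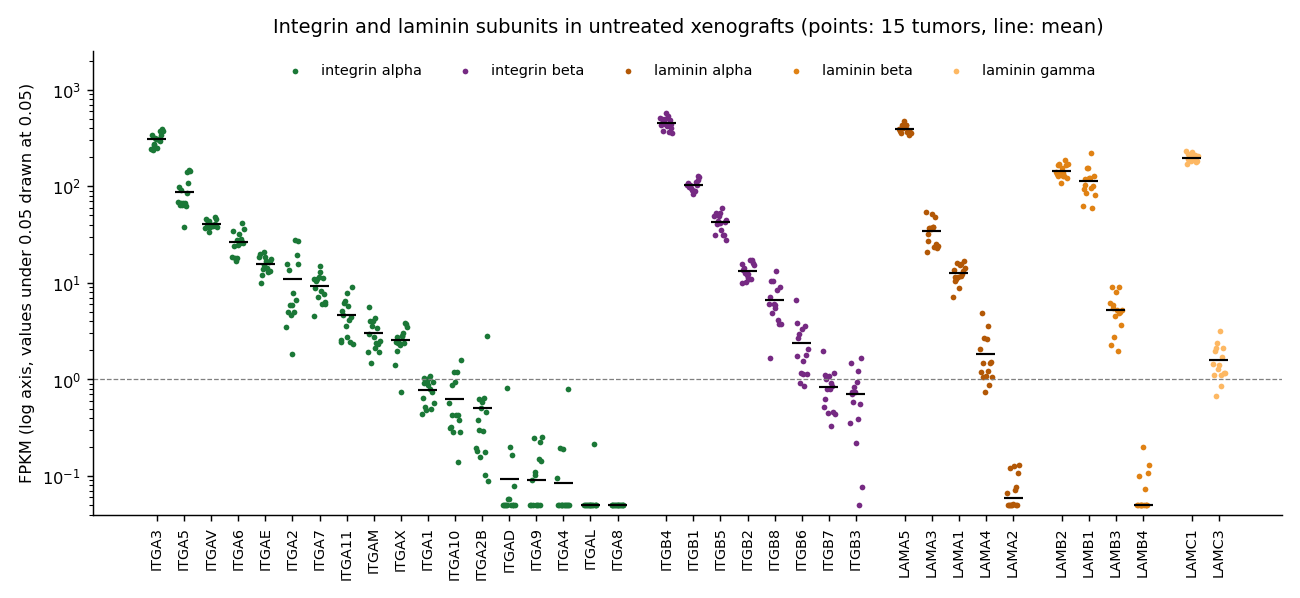
Level of the subunits in FPKM (log axis) in the 15 untreated tumors, ordered by mean within each class. Points are tumors, short lines are means, the dashed line marks an FPKM of 1, and values under 0.05 are drawn at 0.05. ITGA3, ITGB4, LAMA5 and LAMC1 lead their classes without overlap with the next gene, while LAMB2 and LAMB1 overlap.

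Below these, the order within the integrin alpha class was ITGA5, ITGAV, ITGA6 and ITGAE, each overlapping with the next. ITGA5, the alpha subunit of the fibronectin receptor, had a mean of 87.6 ± 33.8 FPKM (SD, n = 15). ITGAV, which binds RGD motifs of vitronectin and latent TGF-beta with several beta partners, had 40.4 ± 3.77 FPKM (SD, n = 15). ITGA6, the laminin-binding partner of ITGB4 and ITGB1, had 26.5 ± 7.26 FPKM (SD, n = 15). ITGAE, the alpha subunit that pairs with ITGB7 in T cells of epithelia, had 15.8 ± 3.1 FPKM (SD, n = 15), against 0.836 ± 0.416 FPKM (SD, n = 15) of ITGB7.

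Among the beta subunits, ITGB1, the common partner of most alpha subunits, followed ITGB4 with 102.0 ± 13.4 FPKM (SD, n = 15). ITGB5, a partner of ITGAV, had 42.2 ± 9.44 FPKM (SD, n = 15). ITGB2, the beta subunit of leukocyte integrins, had 13.2 ± 2.5 FPKM (SD, n = 15). No range of ITGB4, ITGB1, ITGB5 and ITGB2 overlapped with the next in this order. The 13 leukocyte markers listed, human genes in tumors whose host cells are of the mouse, were unequal. TYROBP, AIF1 and MS4A1 were listed at 0 in all 91 libraries, and PTPRC at 0 in 24 of them with a mean of 0.416 FPKM, whereas CD68 had a mean of 138.3 FPKM and reached an FPKM of 1 in all 91. CD14 did so in 66, CSF1R in 42 and ITGAM in 88 of the 91 libraries. The known alpha partners of ITGB2 were lower than ITGB2: ITGAM had 3.02 FPKM, ITGAX 2.57 and ITGAD 0.0924 on average, and ITGAL was listed at 0 in 14 of the 15 untreated tumors.

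The levels of receptor partners were unequal. ITGB4 pairs only with ITGA6, and the level of ITGB4 in each of the untreated tumors at 1 h was 12.6 to 27.8 times that of ITGA6. At 3-6 h the untreated tumors had ratios of 13.2 to 24.8, and at 24 h of 9.63 to 18.3. Of the remaining laminin chains, LAMB2 had 145.1 ± 22.5 FPKM, LAMB1 113.4 ± 41.0, LAMA3 34.2 ± 10.6 and LAMA1 12.6 ± 2.71 (SD, n = 15). LAMA3 is the alpha chain of laminin-332, the ligand of hemidesmosomes. Its partner chain LAMB3 had 5.28 ± 2.18 FPKM (SD, n = 15), with every value below those of LAMA3.

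The spread between tumors differed from gene to gene. Over the 34 untreated and vehicle tumors of the 3 studies, the highest tumor had 1.49 times the level of the lowest for ITGAV, 1.54 times for ITGB1 and 1.56 times for LAMA5. The corresponding ratio was 5.08 for ITGA5 and 23.4 for ITGA2, the collagen receptor subunit, whose values ran from 1.18 to 27.6 FPKM. These ratios hold differences between the studies too: within the studies at 1 h, 3-6 h and 24 h the ratio was 4.44, 10.5 and 4.13 for ITGA2, 1.76, 3.71 and 1.73 for ITGA5, and 1.49, 1.41 and 1.29 for ITGAV. ITGA2 is on the list of negative effectors of YAP1/TAZ-TEAD that the study uses, and ITGB2 on that of positive effectors.

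Promoter sequence was shown for the called genes that had a window in the reference and for a pair of highly expressed integrins whose window holds a TEAD motif. RefSeq windows (GRCh38.p14, from 250 bases before to 50 bases after a transcription start) were given for 26 of the 38 genes. ITGA3, ITGB4 and ITGA7, which were also called (below), had no window and were not searched. The TEAD motif CATTCC or its reverse complement GGAATG lay in 14.0% of all 35116 windows and in 4 of the 33 windows of these genes (12.1%). The AP-1 motif TGACTCA or TGAGTCA lay in 4.95% of all windows and in 3 of the 33 (9.09%). Both strands were searched, and no match of one motif overlapped a match of the other in the windows shown. Motifs are in capitals below, in the direction of the gene.
LAMA5, chr20:62367263-62367562, minus strand: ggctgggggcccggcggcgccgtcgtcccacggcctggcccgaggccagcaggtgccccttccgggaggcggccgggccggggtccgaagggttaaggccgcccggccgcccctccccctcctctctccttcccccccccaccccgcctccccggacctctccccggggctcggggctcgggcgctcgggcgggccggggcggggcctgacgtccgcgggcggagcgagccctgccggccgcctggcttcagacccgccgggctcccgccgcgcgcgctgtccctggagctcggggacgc
ITGB5, chr3:124901369-124901668, minus strand: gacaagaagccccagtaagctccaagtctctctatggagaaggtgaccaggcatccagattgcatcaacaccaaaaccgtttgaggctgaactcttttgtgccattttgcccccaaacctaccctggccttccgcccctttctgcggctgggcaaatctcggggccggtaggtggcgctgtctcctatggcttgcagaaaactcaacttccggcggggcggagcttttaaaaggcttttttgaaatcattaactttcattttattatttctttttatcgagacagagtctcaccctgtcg
ITGA5, chr12:54419217-54419516, minus strand: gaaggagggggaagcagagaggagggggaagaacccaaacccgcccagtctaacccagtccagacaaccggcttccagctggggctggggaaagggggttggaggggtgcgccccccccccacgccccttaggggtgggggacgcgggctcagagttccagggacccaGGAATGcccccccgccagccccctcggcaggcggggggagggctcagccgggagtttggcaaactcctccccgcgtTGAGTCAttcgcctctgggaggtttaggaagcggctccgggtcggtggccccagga
ITGB1, chr10:32958181-32958480, minus strand: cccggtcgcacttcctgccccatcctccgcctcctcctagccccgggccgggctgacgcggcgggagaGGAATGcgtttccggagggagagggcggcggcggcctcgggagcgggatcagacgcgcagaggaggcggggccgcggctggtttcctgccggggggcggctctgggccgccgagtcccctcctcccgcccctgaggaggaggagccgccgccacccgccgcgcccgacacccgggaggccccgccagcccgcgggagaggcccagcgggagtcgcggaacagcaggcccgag
The windows of LAMA5 and ITGB5, which rose after K-975 (below), hold no capitals, and neither motif was found in the other 2 ITGB5 windows. The ITGA5 window holds a TEAD motif whose first base is at -82 and an AP-1 motif, and that of ITGB1 a TEAD motif at -182 (positions relative to the start). Another ITGB1 window, at chr10:32935509-32935808, holds neither motif. A match is a string of letters, and binding was not measured.

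At 24 h after 200 mg/kg, 5 of the 33 tested genes were called, 4 higher and 1 lower than vehicle, where 7.41% of all 13036 genes were called (496 higher and 470 lower). The genes that rose were ITGA7, ITGB5, ITGB4 and LAMA5, and the gene that fell was ITGA3. An unadjusted p below 0.05 was reached by 7 of the 33 (21.2%), against 21.9% of all genes. The median difference of the 33 was 0.184, and that of all genes 0.0374 (log2). As reference targets of TEAD, CCN1 and CCN2 fell by 1.26 and by 1.44 on the log2 scale in the same comparison.

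ITGA3 (ENSG00000005884.17, chr17:50055968-50090481 of GRCh38, plus strand) was 359.7, 370.0, 384.3 and 355.2 FPKM in the vehicle tumors at 24 h. In the tumors given 200 mg/kg it was 253.6, 349.3, 254.5, 263.9 and 289.6 FPKM. All 5 treated tumors lay below every vehicle tumor, the second of them close to the lowest. So did every tumor at 30 mg/kg (296.8 to 343.4 FPKM) and 100 mg/kg (291.1 to 354.9 FPKM), with differences of -0.17 and -0.19 that were not called (adjusted p = 0.579 and 0.408, limma). The difference was -0.39 (SE 0.096, adjusted p = 0.00666, limma), a ratio of 0.764. The trend over vehicle and the 3 doses was -0.17 per 100 mg/kg (SE 0.044, adjusted p = 0.0115, limma). At 200 mg/kg ITGA3 was also called against untreated tumors (-0.33, SE 0.091, adjusted p = 0.0139, limma), whose values were 375.0, 296.6, 336.2, 389.4 and 373.2 FPKM.

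ITGB4 (ENSG00000132470.13, chr17:75721328-75757818, plus strand) was 396.3, 379.7, 366.1 and 417.6 FPKM with vehicle. With 200 mg/kg it was 754.6, 519.2, 546.7, 433.6 and 526.9 FPKM, all above every vehicle tumor. The difference was 0.49 (SE 0.12, adjusted p = 0.00595, limma), a 1.4-fold rise, and the trend 0.19 per 100 mg/kg (SE 0.054, adjusted p = 0.0213, limma). The groups at 30 and 100 mg/kg were also entirely above vehicle, at 429.3 to 584.4 and 467.8 to 590.5 FPKM, with differences of 0.37 and 0.41 that were not called (adjusted p = 0.297 and 0.0824, limma). Without the first tumor at 200 mg/kg, which had the highest value, the difference from vehicle was 0.37 (adjusted p = 0.0674, limma). ITGA6, the partner of ITGB4, moved the other way without being called, at 36.4, 33.5, 38.6 and 31.7 FPKM with vehicle and 20.4, 39.5, 19.7, 19.1 and 19.6 with 200 mg/kg. Its second treated tumor was above every vehicle tumor and the other 4 below (difference -0.60, SE 0.245, adjusted p = 0.119, limma). The ratio of ITGB4 to ITGA6 was 9.48 to 13.2 in the vehicle tumors and 13.1 to 36.9 at 200 mg/kg. These vehicle tumors were low in the ratio beside other controls. It was 9.63 to 18.3 in untreated tumors at 24 h, and with vehicle 11.5 to 33.5 at 1 h and 12.3 to 25.6 at 3-6 h.

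ITGA7 (ENSG00000135424.15, chr12:55684568-55716037, minus strand), the alpha subunit of the laminin receptor of muscle, was 3.16, 4.66, 4.49 and 6.33 FPKM with vehicle. It was 14.2, 8.73, 8.17, 14.4 and 8.01 FPKM with 200 mg/kg, all above every vehicle tumor. The difference was 1.03 (SE 0.26, adjusted p = 0.00735, limma), the largest among the called integrin and laminin genes, and the trend 0.40 per 100 mg/kg (SE 0.12, adjusted p = 0.0278, limma). The comparison rests on the vehicle group. Untreated tumors at 24 h had 6.08, 11.3, 7.71, 6.39 and 6.02 FPKM, and against them the difference was 0.45 (SE 0.24, adjusted p = 0.263, limma). The vehicle and untreated tumors of the other studies had 4.51 to 16.5 FPKM at 1 h and 5.35 to 14.8 at 3-6 h, ranges that contain every tumor given 200 mg/kg at 24 h.

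ITGB5 (ENSG00000082781.11, chr3:124761948-124901418, minus strand) was 36.5, 27.7, 24.1 and 36.8 FPKM with vehicle and 64.2, 34.7, 55.5, 47.5 and 54.7 with 200 mg/kg. The second treated tumor lay within the vehicle range and the other 4 above it. The difference was 0.69 (SE 0.20, adjusted p = 0.026, limma), a 1.61-fold rise. It was 0.52 against untreated tumors (SE 0.19, adjusted p = 0.0766, limma). The call was lost without any 1 of 5 tumors, with adjusted p between 0.0589 and 0.127 (limma) and differences between 0.58 and 0.66: vehicle replicates 2 and 3, and replicates 1, 3 and 5 at 200 mg/kg.

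LAMA5 (ENSG00000130702.15, chr20:62307955-62367312, minus strand) was 382.4, 368.8, 354.7 and 341.0 FPKM with vehicle. It was 471.1, 383.2, 455.5, 423.8 and 404.7 FPKM with 200 mg/kg, all above every vehicle tumor, the second of them close to the highest. The difference was 0.24 (SE 0.076, adjusted p = 0.0397, limma), a 1.18-fold rise, and 0.25 against untreated tumors (SE 0.072, adjusted p = 0.0211, limma). Values at 30 mg/kg (385.6 to 437.9) and 100 mg/kg (387.4 to 429.0) were above every vehicle tumor too, with differences of 0.22 and 0.18 that were not called (adjusted p = 0.327 and 0.273, limma). The call at 200 mg/kg was lost without vehicle replicate 2, 3 or 4 or treated replicate 1, 3 or 4 (adjusted p 0.0599 to 0.145, limma). No other laminin chain was called: LAMC1 differed by -0.03 (SE 0.098), LAMB2 by 0.21 (SE 0.14), LAMB1 by 0.37 (SE 0.27), LAMA3 by 0.36 (SE 0.23) and LAMA1 by -0.16 (SE 0.17) from vehicle on the log2 scale.

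**Figure D2:**
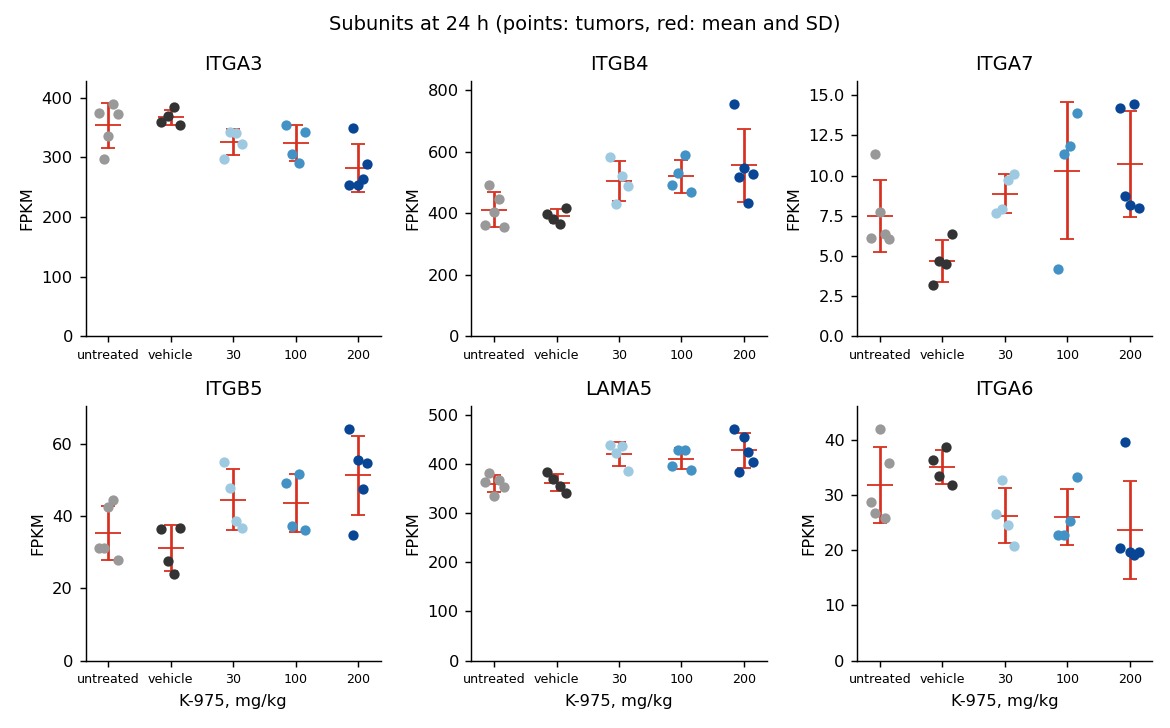
FPKM of the 5 called genes and of ITGA6 in each tumor at 24 h, by treatment (untreated, vehicle, and K-975 at 30, 100 and 200 mg/kg). Points are tumors and red marks are the mean and SD. ITGA3 is lowest at 200 mg/kg, ITGB4 and LAMA5 are above vehicle at all 3 doses, and 1 tumor at 200 mg/kg stands apart from the other 4 in ITGA3 and ITGA6.

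The remaining integrins did not pass at 24 h. ITGB1 differed by -0.04 (SE 0.070, 95% interval -0.18 to 0.096) between 200 mg/kg and vehicle, and ITGAV by 0.17 (SE 0.094, interval -0.015 to 0.36). ITGA5 was 121.7, 93.3, 104.7 and 118.8 FPKM with vehicle and 48.6, 129.5, 72.8, 79.6 and 80.8 with 200 mg/kg. Here too the second treated tumor was above every vehicle tumor and the other 4 below (difference -0.47, SE 0.25, adjusted p = 0.252, limma). ITGB2 was 20.5, 19.2, 15.5 and 15.2 FPKM with vehicle against 12.2, 17.9, 12.5, 13.2 and 13.3, a difference of -0.33 (SE 0.14, adjusted p = 0.145, limma). Against untreated tumors the difference of ITGB2 was -0.134 (SE 0.134, adjusted p = 0.599, limma). The range of ITGA2 with 200 mg/kg, 7.16 to 30.9 FPKM, enclosed that with vehicle, 11.7 to 16.4 FPKM (difference -0.19, SE 0.43, adjusted p = 0.851, limma).

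The second tumor at 200 mg/kg was the highest of the 5 in 11 and the lowest in 13 of the 33 genes, and the first was the highest in 11 and the lowest in 5. In the second tumor CCN1 was 167.4 FPKM, against 71.9 to 99.9 in the other 4 and 196.4 to 268.4 with vehicle. CCN2 there was 5.717 FPKM, against 2.383 to 4.935 in the other 4 and 10.94 to 15.96 with vehicle. THBS1, also on the study's list of positive effectors, went the other way. At 9.412 FPKM it was below the other 4 (12.28 to 19.45) and vehicle (32.37 to 44.25). Without the second tumor, 7 of the 33 genes were called and 1538 of all genes. ITGA6 and ITGB2 then joined the 5, ITGB2 with a difference of -0.42 (adjusted p = 0.0471, limma), and ITGA3 and ITGB5 differed by -0.47 and 0.82.

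At 100 mg/kg and 24 h, 0 of the 33 genes were called by limma, where 1.12% of all genes were, and 5 (15.2%) had an unadjusted p below 0.05, against 14.1% of all genes. At 30 mg/kg the count was also 0, with 0.0384% of all genes called and 6 of the 33 (18.2%) at an unadjusted p below 0.05, against 10% of all genes. ITGA7 was 7.70, 7.94, 9.71 and 10.1 FPKM at 30 mg/kg, above every vehicle tumor, and 4.17, 11.4, 11.8 and 13.9 at 100 mg/kg. Its differences from vehicle were 0.82 and 0.92 (adjusted p = 0.268 and 0.0662, limma). Setting the doses against each other, the difference between 200 and 30 mg/kg was -0.22 for ITGA3 (interval -0.41 to -0.024, adjusted p = 0.479, limma) and 0.12 for ITGB4 (interval -0.12 to 0.36, adjusted p = 0.844, limma). For LAMA5 it was 0.021 (interval -0.13 to 0.17, adjusted p = 0.977, limma). The trend over dose at 24 h called 3 of the 33 genes (ITGA3, ITGA7 and ITGB4), against 5.61% of all genes, and 8 of the 33 (24.2%) had an unadjusted p below 0.05, against 20% of all genes. Without the first tumor at 200 mg/kg, none of the 3 was called (adjusted p = 0.0632 for ITGA3, 0.123 for ITGA7 and 0.194 for ITGB4, limma). ITGA3 was also lost without the third tumor at 200 mg/kg (adjusted p = 0.0505, limma), ITGB4 without the third vehicle tumor (0.0541), and ITGA7 without vehicle replicate 1 or 3 (0.089 and 0.0519) or replicate 4 at 200 mg/kg (0.0988).

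**Figure D3:**
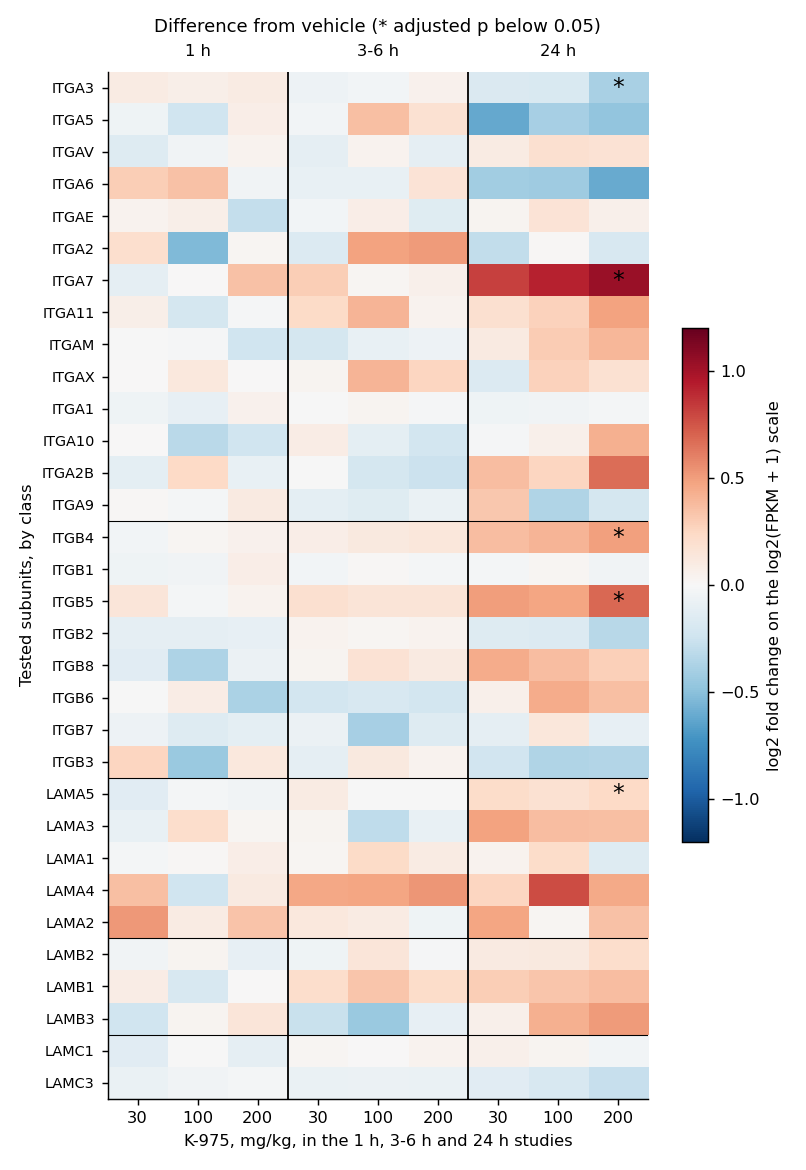
Difference from vehicle (log2 scale, color) of tested genes for each dose in the studies at 1 h, 3-6 h and 24 h. Rows are grouped by class in the order of the levels in untreated tumors, and asterisks mark an adjusted p below 0.05, which only the 24 h, 200 mg/kg column holds.

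Earlier samples showed no called gene. At 3-6 h, limma called 0 of the 33 at 200 mg/kg (0.0690% of all genes), at 100 mg/kg (0.430%) and at 30 mg/kg (0.0153%), with 1, 5 and 0 of the 33 at an unadjusted p below 0.05 (3.03%, 15.2% and 0%, against 7.23%, 10.3% and 7.03% of all genes). The trend over dose at 3-6 h called 0 (0.215% of all genes), with 2 of the 33 (6.06%) at an unadjusted p below 0.05, against 7.83% of all genes. At 1 h, 0 of the 33 had an unadjusted p below 0.05 at any dose or in the trend, and limma called 0 genes of all at 200 mg/kg (0%), 1 at 100 mg/kg (0.00767%), 0 at 30 mg/kg (0%) and 0 in the trend (0%). Of all genes, 435, 648, 571 and 444 had an unadjusted p below 0.05 in these comparisons. When each cage was set alone against vehicle at 3-6 h, the 1 call was ITGAX at 100 mg/kg in 1 cage, where 173 of all genes were called. ITGAX is named after its value was seen, and with both cages it differed by 0.41 (adjusted p = 0.165, limma).

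ITGA3 in the 10 vehicle tumors at 3-6 h was 267.7 at the lowest, 301.5 at the median and 360.7 FPKM at the highest. In the 10 tumors given 200 mg/kg it was 280.0, 310.8 and 370.8 FPKM, a difference of 0.05 (SE 0.064, adjusted p = 0.925, limma). ITGB4 at 3-6 h ran from 412.1 through 532.3 to 577.6 FPKM with vehicle and from 440.9 through 595.7 to 688.4 with 200 mg/kg, where 6 of 10 tumors were above every vehicle tumor (difference 0.14, SE 0.080, adjusted p = 0.747, limma). The medians of LAMA5 were 413.9 FPKM with vehicle and 425.7 with 200 mg/kg (difference -0.0057, SE 0.051). ITGA7 differed by 0.06 (SE 0.17) and ITGB5 by 0.16 (SE 0.14). At 1 h the differences at 200 mg/kg were 0.09 for ITGA3 (SE 0.096), 0.05 for ITGB4 (SE 0.12), 0.35 for ITGA7 (SE 0.26), 0.04 for ITGB5 (SE 0.20) and -0.04 for LAMA5 (SE 0.076), with adjusted p of 1 (limma).

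The effect of 200 mg/kg at 24 h minus that at 3-6 h was called for 1 of the 33 genes, ITGA3 (-0.44, SE 0.12, adjusted p = 0.0286, limma), where 1.72% of all genes were called, and 11 of the 33 (33.3%) had an unadjusted p below 0.05, against 16.3% of all genes. This call was lost without vehicle replicate 1, 2 or 3 or treated replicate 1, 3 or 4 at 24 h, with differences of -0.45 to -0.41 and adjusted p from 0.053 to 0.0954 (limma). Against the 1 h study limma called 0 of the 33 (0.583% of all genes), with 4 (12.1%) at an unadjusted p below 0.05 against 13.2% of all genes, and ITGA3 differed by -0.48 (SE 0.14, adjusted p = 0.0709, limma).

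The control tumors of the studies themselves stood at different levels, which are described without a test because study and time coincide. The 9 untreated and vehicle tumors at 24 h had 296.6 to 389.4 FPKM of ITGA3 with a median of 370.0, against medians of 291.5 at 1 h (n = 10) and 303.2 at 3-6 h (n = 15). The median of ITGB4 in them was 396.3 FPKM at 24 h, 454.8 at 1 h and 526.9 at 3-6 h. With 200 mg/kg the 24 h medians were 263.9 FPKM for ITGA3 and 526.9 for ITGB4. ITGA2 had a control median of 16.1 FPKM at 24 h, 8.14 at 1 h and 5.00 at 3-6 h. Vehicle against untreated tumors, averaged over the studies, gave 0 called genes of the 33 and 0% of all genes by limma (625 of all at an unadjusted p below 0.05), and 2 of the 33 had an unadjusted p below 0.05: ITGB5 (-0.24, SE 0.11) and ITGB2 (0.16, SE 0.076).

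**Figure D4:**
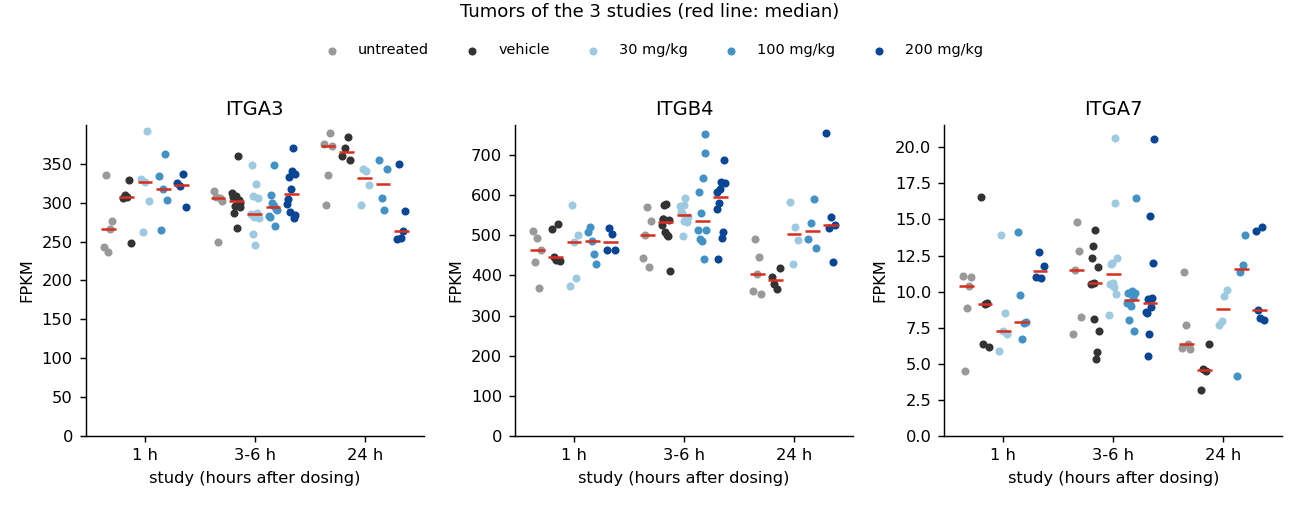
FPKM of ITGA3, ITGB4 and ITGA7 in each tumor of the studies at 1 h, 3-6 h and 24 h, colored by treatment, with red lines at the medians. At 24 h the untreated and vehicle tumors are high in ITGA3 and low in ITGB4 and ITGA7 relative to the other studies, with ITGA3 medians of 370.0, 303.2 and 291.5 FPKM at 24 h, 3-6 h and 1 h over both control groups.

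Genes that act with integrins were counted from lists, for the 24 h comparison of 200 mg/kg with vehicle, in which 7.41% of all genes were called (496 rose and 470 fell). Among 40 tested genes of the adhesion complex, 1 was called higher and 2 lower than vehicle, a share near that of all genes (median -0.022, all genes 0.0374). ACTN1, the alpha-actinin that crosslinks actin at adhesions, fell by 0.54 on the log2 scale, CAV1, the caveolae protein, fell by 0.39, and KANK2, which binds talin, rose by 0.45. Talin itself (TLN1), which activates integrins, differed by -0.14 (SE 0.15, adjusted p = 0.619, limma). Among 22 tested components of the basement membrane and other laminin receptors, 3 rose and 0 fell (median 0.0047). AGRN, a heparan sulfate proteoglycan that binds laminin, rose by 0.27, COL4A5, a chain of the collagen IV network, by 0.41, and COL18A1, the core of another proteoglycan, by 0.41. Among 16 tested other ligands of integrins, 0 rose and 3 fell (median -0.095): THBS1 fell by 1.31, and the others were CCN1 and CCN2, the reference targets already given. All 3, and CAV1 above, are on the list of positive effectors of YAP1/TAZ-TEAD that the study uses. NTN4 and SDC2, among the basement membrane genes, are on it too and were not called. They differed by 0.087 and -0.52 (adjusted p = 0.808 and 0.219, limma). FERMT1 of the adhesion complex is on the list of negative effectors and differed by -0.205 (adjusted p = 0.666, limma).

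Markers of other cell types were read beside these values. Host cells in these tumors are of the mouse, whereas the values are of human genes. How mouse reads were treated is not given, so these values do not measure the number of host cells. The source of the marker values was not tested. At 24 h the summed FPKM of 13 leukocyte markers was 148 to 227 with vehicle and 133 to 212 with 200 mg/kg, and 0 of 7 tested were called. CD68 makes up most of that sum, so the sum follows this 1 gene, which differed by -0.17 (SE 0.25). The median of the 7 tested markers was 0.215, with CSF1R at 0.91 (adjusted p = 0.169, limma) and S100A9 at 0.86 (adjusted p = 0.0817, limma), and the list holds ITGAM itself. Fibroblast and pericyte markers summed to 892 to 1080 and 793 to 1440 FPKM (9 genes, 0 of 8 tested called), and endothelial markers to 58.2 to 96.3 and 53.8 to 115 (8 genes, 0 of 5 called), with CLDN5 listed at 0 and COL1A2 near 0. Platelet markers, among them ITGA2B, summed to 0.263 to 0.938 and 0.586 to 3.65 FPKM, with PF4 listed at 0 and 0 of 1 tested called. Of 10 mesothelial markers, MSLN, CALB2 and KRT19 rose by 0.40, 0.40 and 0.32, and the median of the list was -0.031. The sum was 3010 to 3200 FPKM with vehicle and 3350 to 4250 with 200 mg/kg. KRT5, the largest part of it (mean 933 FPKM over the 91 libraries), differed by 0.51 and was not called (adjusted p = 0.157, limma). WT1, KRT8, KRT18, PDPN, UPK3B and UPK1B differed by -0.28 to -0.027 and were not called. The part of the mesothelial markers in the differences of ITGB4, ITGB5, ITGA7 and LAMA5 was not tested.

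Whether partner chains vary together was asked for 16 listed pairs over the 34 untreated and vehicle tumors, with log2(FPKM + 1) centred on the mean of each study. No pair passed on Pearson's r after adjustment over the 16 (two-sided permutation test with 100000 resamples within studies). The highest was LAMB2 with LAMC1, the beta and gamma chains of laminin-521 (r = 0.491, permutation p = 0.00363, adjusted 0.0581). Its Spearman rho was 0.486 (permutation p = 0.00461, adjusted 0.0369), and r was 0.531 without the 2 tumors farthest from the median of LAMB2. Within the studies, r was 0.522 at 1 h, 0.575 at 3-6 h and 0.309 at 24 h.

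LAMB1, the alternative beta chain, went the opposite way. It correlated with LAMC1 at r = -0.442 (permutation p = 0.0125, adjusted 0.0668) and rho = -0.617 (permutation p = 0.00023, adjusted 0.00368). Without the 2 farthest tumors r was -0.513, and within the studies it was -0.704, -0.244 and -0.493 at 1 h, 3-6 h and 24 h. ITGA3 and ITGB1, which form alpha3beta1, had r = 0.415 (permutation p = 0.00984, adjusted 0.0668) and rho = 0.325 (adjusted 0.212). That r was 0.261 without the 2 farthest tumors. ITGA6 and ITGB4 had r = -0.192 (permutation p = 0.296, adjusted 0.473) and rho = -0.283 (adjusted 0.212). LAMA3 with LAMB3 had r = 0.348 (permutation p = 0.0351, adjusted 0.14) and rho = 0.356 (adjusted 0.155). Over all 16 pairs r lay between -0.442 and 0.491.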

How the data were processed

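RNA was extracted from tumors kept in RNAlater, and KAPA RNA HyperPrep libraries, enriched for targets by HyperCap, were read from both ends on a NextSeq 500. The submitters' processing notes name STAR and GRCh38. The quantifier, the annotation, the strand setting and the treatment of mouse reads are not given in the sources used here. The authors deposited FPKM per gene and tumor, without counts, so that sequencing depth is unknown and no counting interval is given. Of 20555 entries, 316 that repeated a gene ID were dropped, and 32 blank cells were read as 0.

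Groups were taken from the sample labels, and each tumor came from another mouse. Differences were fitted with limma 3.58.1 (R 4.3.3) to log2(FPKM + 1) over all groups, with 1 mean per group and Benjamini-Hochberg adjustment over 13036 genes reaching an FPKM of 1 in 4 or more of 91 libraries; the addition of 1 understates the changes of low genes. 3 shallow libraries (fewer than 10000 genes reaching an FPKM of 1) were left out. The fit and the permutation test were tested on simulated data. Genes were named if called in a comparison with vehicle or in a dose trend, or if among the 5 integrin alpha, 4 integrin beta and 6 laminin genes with the highest level; ITGB2, ITGA2, CCN1 and CCN2 were added, and any other gene is named for a partner or a level at 0. The genes, lists and pairs were chosen with earlier results of these data known. Coordinates come from the table, shifted to count from 1, with strands from GENCODE 29, where all 38 IDs were found. Alternatives were other filters, another pseudocount, quantile normalization, all 94 libraries with and without quality weights, the compared groups alone, untreated tumors as controls, single cages and leaving out each tumor. 1 laminin gene was counted but is not reported here.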

Additional observations from a re-analysis of the deposited data

Results flagged for a closer look

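In 133 checks of groups of 4 or 5 tumors, with the cages at 3-6 h kept apart, 7 held a tumor far from the others by Dixon's criterion. Chance alone gives about 1 in 20. ITGA3 had a low tumor with vehicle at 1 h (248.2 FPKM, the others 306.5 to 329.5) and a low untreated tumor at 3-6 h (249.5 FPKM, the others 301.8 to 315.1). LAMA5 had a low tumor at 200 mg/kg and 1 h (343.4 FPKM, the others 383.1 to 384.7), and a high one at 200 mg/kg in 1 cage at 3-6 h (440.6 FPKM, the others 347.0 to 373.7). ITGB2 had a high tumor at 200 mg/kg and 24 h (17.9 FPKM, the others 12.2 to 13.3). ITGA2 had a high tumor at 200 mg/kg at 1 h (19.3 FPKM, the others 5.55 to 7.76), and another in 1 cage at 3-6 h (18.5 FPKM, the others 4.37 to 7.71).

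The effect of 200 mg/kg on ITGA3 differed between the studies at 24 h and 3-6 h, by -0.442 on the log2 scale (adjusted p = 0.0286, limma). The call was kept in 23 of 29 fits that left out 1 tumor, with adjusted p up to 0.0954 (limma). Time and study coincide in this comparison.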

How the results depend on the processing

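No result reversed its direction under any alternative. Of the integrin and laminin genes called at 200 mg/kg and 24 h (5, among 966 of all genes), 0 were called with all 94 libraries (0 of all genes), 1 with the compared groups alone (ITGA7, 324 of all genes) and 3 against untreated tumors (ITGA3, ITGB4 and LAMA5, 1083 of all genes), and leaving out 1 tumor gave 2 to 7. The trend at 24 h (3, among 731 of all genes) gave 0 with all 94 libraries (3 of all genes), 7 with quality weights (1635), 1 with the compared groups alone (322), and 0 to 4 when 1 tumor was left out. The 24 h minus 3-6 h effect (1, among 224) gave 0 with all 94 libraries (0), 4 with quality weights (897) and 0 to 3 without 1 tumor, and the 24 h minus 1 h effect (0, among 76) gave 1 with quality weights (524) and 0 to 1 (ITGA3 without replicate 2 at 200 mg/kg). At 30 mg/kg and 24 h (0), all 94 libraries gave 4, among 2960 of all genes (the library in which 702 genes reached an FPKM of 1 is in that group). At 100 mg/kg, leaving out 1 tumor gave 0 to 1 at 24 h (ITGA7 without replicate 1), and 1 cage alone gave 1 at 3-6 h (among 173 of all genes). By Pearson's r, 0 of the 16 pairs passed with and 3 without centring on the study, whereas by Spearman's rho 2 passed with centring and 1 (LAMB1 with LAMC1, adjusted 0.0149) without. No paired analysis was possible because the labels give no replicate numbers that pair tumors of different groups. The cause of these changes was not tested, and depth cannot be read from FPKM. The number of all genes called also moved with the tumor left out, as given above for the second tumor at 200 mg/kg. The ranges of counts from leaving out 1 tumor are given without it, so they cannot be set against the share of all genes.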
